A study of Homo sapiens with 6 samples.

Results

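The 10 long noncoding RNAs MALAT1, NEAT1, CRNDE, GAS5, PVT1, TUG1, NORAD, CYTOR, DANCR and OIP5-AS1 were chosen by name, as abundant transcripts with a large literature, from the 61487 genes of the count table. All 10 had a row and all 10 passed the filter on low counts. Their levels were compared between azacitidine-sensitive and azacitidine-resistant K562 cells, an established human leukaemia line with erythroid features. The study had 3 sensitive and 3 resistant libraries. Resistant cells came from the same line after more than 4 months of growth in rising concentrations of azacitidine, a cytidine analogue that binds DNA methyltransferases irreversibly once it sits in DNA, and that also enters RNA. Both groups were grown in RPMI medium with serum and antibiotics, and the labels name no drug in the medium when RNA was taken. Total RNA was treated with DNase, depleted of ribosomal RNA, made into stranded libraries and read from both ends on a NovaSeq, so transcripts without a poly(A) tail could be captured.

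Long noncoding RNAs act as RNA and are not translated into stable proteins. Some hold nuclear bodies together, as NEAT1 does for paraspeckles. Others bind proteins or microRNAs in the cytoplasm, as NORAD binds Pumilio proteins and OIP5-AS1 binds miR-7, and others are hosts whose introns carry small nucleolar RNAs (snoRNAs), as in GAS5.

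Library totals ranged from 33007642 to 43006918 counts, and each of the 10 RNAs had at least 1203 counts in every library, so counting error was small beside the spread between libraries. Levels are given as CPM, the gene's count scaled to a common library size, on totals scaled by the trimmed mean of M-values (TMM). The libraries numbered 3 stood apart: the 8 markers of K562 cells summed to 1624 CPM in the sensitive and 1524 CPM in the resistant one, against 711 to 1005 CPM in the other 4, and mitochondrial ribosomal RNA took 12.8% of counts in sensitive replicate 3 and 8.54% in resistant replicate 3, against 14.0% to 17.8% in the other 4. Values without these libraries are given below where a call or its size changed among the 10 RNAs. Of those markers the globin gene HBE1 was at or near 0, and the other 7 were present in every library. The labels call the cells myeloblasts, but the myeloblast genes MPO, ELANE and CD34 reached at most 0.120 CPM in any library. The summed level of the 6 myeloblast markers was 107 to 115 CPM in sensitive and 12.5 to 14.4 CPM in resistant libraries, nearly all of it CD33 in the sensitive group. The 3 fibroblast markers summed to 0.782 to 2.62 CPM in sensitive and 4.59 to 7.27 CPM in resistant libraries. That rise was COL1A2 alone, from a mean of 0.324 to 5.51 CPM. COL1A1 went the other way, from a mean of 1.10 to 0.455 CPM, and PDGFRA reached at most 0.0733 CPM in any library. The part of these markers in the results below was not tested. In bulk RNA, fewer cells with a transcript and less of it per cell cannot be told apart.

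CRNDE was lower and TUG1 was higher in resistant cells, and the other 8 RNAs did not pass the test. The threshold was an adjusted p of 0.05 in edgeR's quasi-likelihood test with Benjamini-Hochberg adjustment over 20891 genes. Of these genes 23.0% passed, 9.83% higher and 13.1% lower in resistant cells, so 2 of 10 is near the background. Among the 3795 tested genes of long noncoding types 17.7% passed, 6.67% higher and 11.0% lower, and among the 6114 genes with a mean count of at least 1000 the share was 25.1%. The groups did not overlap for 3 of the 10 (CRNDE lower, TUG1 and NORAD higher), against 40.1% of all tested genes, 18.7% higher and 21.4% lower. The median log2 fold change of the 10 was 0.12, against 0.03 for all tested genes. Together the 10 RNAs made up 0.489%, 0.534% and 0.293% of counts in sensitive replicates 1 to 3, and 1.03%, 0.692% and 0.574% in the resistant ones. Most of that share was MALAT1.

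**Figure D1:**
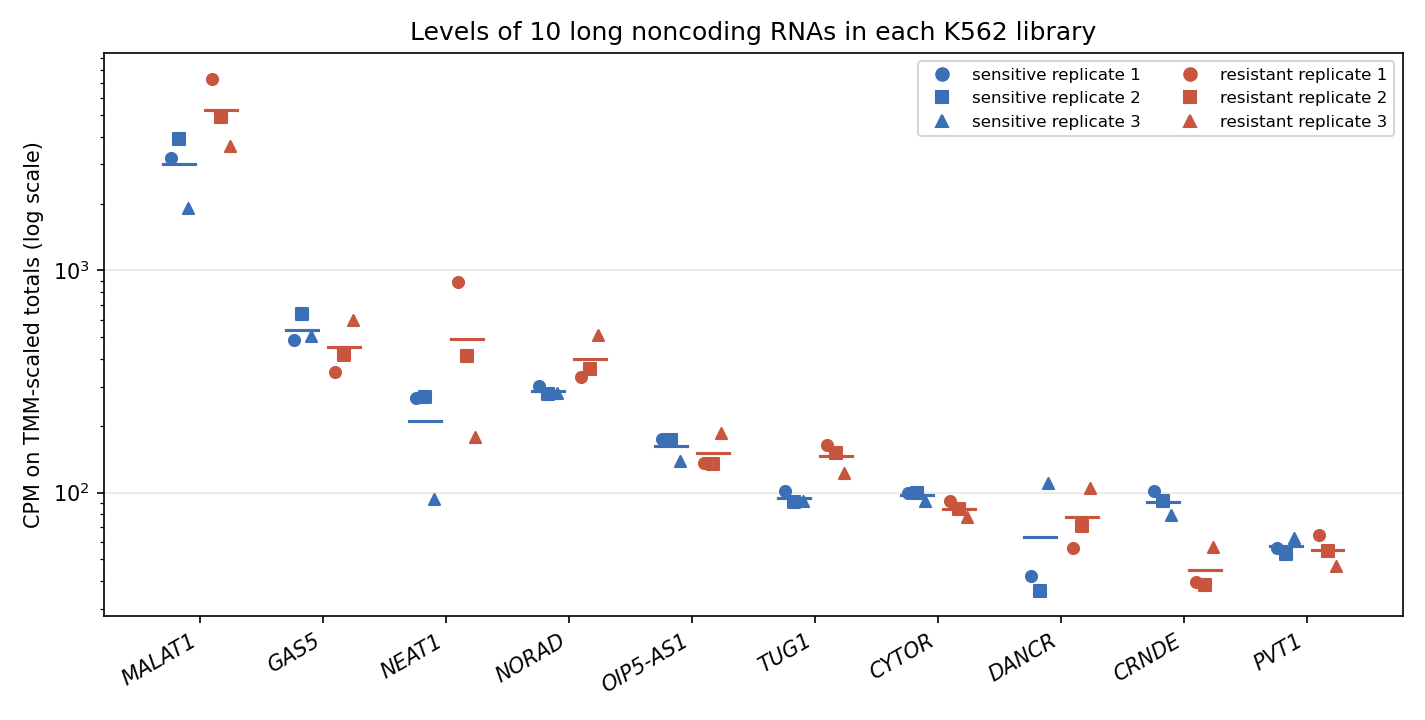
Levels of the 10 RNAs as CPM on TMM-scaled totals (log axis) in each library, with blue symbols for sensitive and red for resistant cells, the symbol shape for the replicate and a short line at the group mean. The MALAT1 symbols run from 1918 to 7301 CPM, and for CRNDE, TUG1 and NORAD the blue and red symbols do not overlap.

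Per kilobase of exon, taken over all annotated transcripts of a gene, the only scale on which levels of different genes were compared, MALAT1 was highest. Its mean was 341 ± 113 CPM per kilobase (SD, n = 3) in sensitive and 598 ± 211 in resistant cells. GAS5 followed at 149 ± 22.4 and 125 ± 35.4 CPM per kilobase, then NORAD at 53.8 ± 2.57 and 75.01 ± 17.9, then DANCR at 27.6 ± 18.1 and 33.8 ± 10.9. In both groups the library ranges of MALAT1 and GAS5, of GAS5 and NORAD, and of NORAD and DANCR did not overlap. Below that, neighbouring ranges overlapped, except that CRNDE lay above CYTOR in resistant cells. CRNDE took the fifth place in sensitive cells with 15.5 CPM per kilobase and the ninth in resistant cells with 7.70. NEAT1 moved the other way, from the ninth place with 9.21 to the fifth with 21.6. CYTOR was lowest in both groups, at 5.49 and 4.79 CPM per kilobase. These places depend on the annotated exon length as well as on the counts. That length was 17693 bases over 38 transcripts for CYTOR and 22767 bases for NEAT1, and which transcripts the cells made was not examined.

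**Figure D2:**
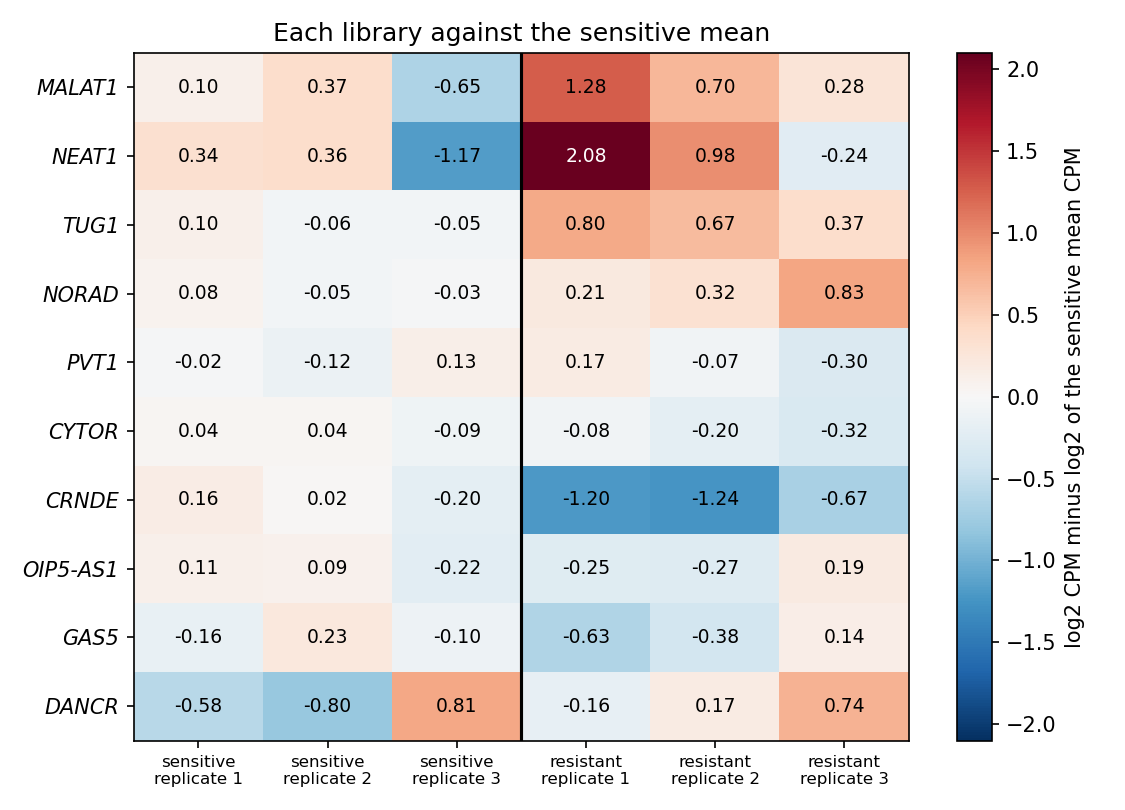
Level of each RNA (rows) in each library (columns) as log2 CPM minus the log2 of the sensitive mean, with red above and blue below that mean and a black line between the groups. The CRNDE row is blue in all 3 resistant libraries (-1.20, -1.24 and -0.67), and the NEAT1 row runs from -1.17 in sensitive replicate 3 to 2.08 in resistant replicate 1.

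MALAT1 and NEAT1 are neighbours that stay in the nucleus. MALAT1 gathers in nuclear speckles, which store splicing factors, and NEAT1 is the scaffold of paraspeckles, which hold RNA-binding proteins. Both genes lie on the plus strand of chromosome 11 (GRCh38, GENCODE 29), NEAT1 at chr11:65422774-65445540 and MALAT1 at chr11:65497688-65506516. Each long transcript ends at a small tRNA-like RNA that RNase P cuts away, which leaves a 3′ end without a poly(A) tail. Both tRNA-like RNAs have entries of their own in the annotation, at chr11:65445541-65445598 for NEAT1, directly after the annotated end of that gene, and at chr11:65506117-65506173 for MALAT1, inside the gene. They are shown because they mark where each long transcript is cut. Capitals mark the 40 bases that are identical in both after alignment of their 57 and 58 bases.
MALAT1 tRNA-like RNA: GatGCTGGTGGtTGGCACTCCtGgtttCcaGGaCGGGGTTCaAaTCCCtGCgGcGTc
NEAT1 tRNA-like RNA: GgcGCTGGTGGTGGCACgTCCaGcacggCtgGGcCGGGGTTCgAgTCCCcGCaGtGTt
The separate row for the MALAT1 tRNA-like RNA held 0 counts in all 6 libraries, and that of NEAT1 held 1 count in the sensitive and 2 in the resistant libraries. Reads from the MALAT1 one also overlap the MALAT1 gene and may have been dropped in counting, so the 0 does not show that this RNA was absent.

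MALAT1 stood at 3222, 3885 and 1918 CPM in sensitive replicates 1 to 3, and at 7301, 4885 and 3646 CPM in the resistant ones. The lowest resistant library lay below the highest sensitive one, so the groups overlapped. The log2 fold change was 0.81 ± 0.34 (SE), with a 95% interval of 0.05 to 1.57, and the adjusted p was 0.117. By counts, not scaled by length, MALAT1 was the fifth feature of the table.

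NEAT1 had 266, 269.9 and 93.2 CPM in sensitive and 885, 413 and 178 CPM in resistant libraries. Within each group replicate 3 was lowest, and the groups overlapped. Its log2 fold change of 1.23 ± 0.54 had an interval of 0.02 to 2.44 and an adjusted p of 0.134. Without resistant replicate 3 both neighbours passed, at 1.00 (adjusted p = 0.0373) for MALAT1 and 1.61 (adjusted p = 0.0193) for NEAT1, but 31.3% of all genes then passed as well. Without resistant replicate 1 they fell short, at 0.51 (adjusted p = 0.340) for MALAT1 and 0.50 (adjusted p = 0.520) for NEAT1. Without both libraries numbered 3 the values were 0.76 (adjusted p = 0.00815) and 1.26 (adjusted p = 0.0401), with 44.1% of genes passing, 21.2% higher and 22.9% lower.

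For every 100 MALAT1 counts there were 8.26, 6.95 and 4.86 NEAT1 counts in sensitive and 12.1, 8.44 and 4.88 in resistant libraries. This ratio, which no scaling of the library can change, overlapped between the groups. The difference of mean log2 ratios was 0.28, with a two-sided exact permutation p of 0.4, where 0.1 is the smallest that 3 against 3 allows. Without resistant replicate 1 the difference was -0.03.

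The nearest tested protein-coding gene on the left of NEAT1, FRMD8, 9248 bases away, did rise. It had 39.8, 39.7 and 31.7 CPM in sensitive and 62.0, 60.5 and 68.9 CPM in resistant libraries, with no overlap (log2 fold change 0.78 ± 0.15, adjusted p = 0.00505).

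Of 19 tested paraspeckle proteins, 1 rose, 1 fell and 17 did not pass, with a median log2 fold change of 0.25. Over all tested genes 9.83% rose and 13.1% fell. ZNF335, a zinc finger protein, rose from 16.4 to 18.3 CPM in sensitive to 23.6 to 30.0 CPM in resistant libraries (0.56, adjusted p = 0.0317). HNRNPA1, an abundant splicing regulator, fell from 1121 to 1740 CPM to 719 to 934 CPM (-0.77, adjusted p = 0.0356). Both calls were lost when 1 library was left out, ZNF335 at adjusted p up to 0.107 and HNRNPA1 up to 0.175. SMARCA4, the motor of a chromatin remodelling complex, was apart at 132 to 142 and 148 to 262 CPM but did not pass (0.57, adjusted p = 0.0765). The 3 core proteins of paraspeckles did not pass either. Their log2 fold changes were -0.07 for NONO, 0.08 for SFPQ and -0.26 for PSPC1.

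Among 22 nuclear speckle proteins 4 rose, none fell and 18 did not pass, with a median of 0.24. All tested genes had 9.83% higher and 13.1% lower, and the difference from these shares was not tested. SON, a large scaffold protein of the speckle, rose from 269 to 292 CPM to 436 to 684 CPM (1.00, adjusted p = 0.00617). SRRM2, the other large scaffold, had 82.1, 102 and 66.4 CPM in sensitive and 498, 208 and 96.7 CPM in resistant libraries. Its call (1.68, adjusted p = 0.0306) came with overlapping groups and was lost when any library but resistant replicate 3 was left out, at 0.87 (adjusted p = 0.0817) without resistant replicate 1. It was also lost without both libraries numbered 3 (1.92, adjusted p = 0.0793), with limma-voom (1.39, adjusted p = 0.0634) and with the replicate number as a block (1.38, adjusted p = 0.0629). The splicing factors SRSF1 (0.53, adjusted p = 0.0315) and TRA2A (0.56, adjusted p = 0.0447) also rose. The SRSF1 call was lost without any single library except resistant replicate 3, with adjusted p up to 0.163.

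CRNDE is a long noncoding RNA first described as raised in colorectal tumours, and it has been tied to chromatin and to RNA-binding proteins. The gene lies on the minus strand at chr16:54845189-54929189. It had 102, 92.0 and 79.2 CPM in sensitive and 39.6, 38.4 and 56.9 CPM in resistant libraries. Every resistant library lay below every sensitive one, and resistant replicate 3 was the nearest to the sensitive group. The mean fell from 90.9 ± 11.2 (SD, n = 3) to 45.0 ± 10.4 CPM, which is 2.02-fold lower. The log2 fold change was -1.01 ± 0.19, with an interval of -1.44 to -0.59 and an adjusted p of 0.00410. CRNDE passed under all 17 alternatives, with log2 fold changes of -1.32 to -0.86, and under no single library left out did the adjusted p exceed 0.0386.

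IRX5, a homeobox gene that starts 1672 bases from CRNDE on the opposite strand, stood at 1.34 to 2.18 CPM in sensitive and 1.41 to 2.04 CPM in resistant libraries. It did not pass (-0.06, 95% interval -0.81 to 0.69, adjusted p = 0.925). FTO, an RNA demethylase gene and the nearest tested coding gene on the other side, did not pass (-0.10, adjusted p = 0.696). The start of CRNDE is shown because this is the member with the largest called change. The window holds 250 bases before and 50 after the start (chr16:54928837-54929136, minus strand, RefSeq on GRCh38.p14). RefSeq places that start inside the gene as GENCODE 29 draws it, so the whole window lies within the GENCODE gene. Capitals mark GC boxes (GGGCGG) and CCAAT boxes, searched on both strands.
CRNDE promoter: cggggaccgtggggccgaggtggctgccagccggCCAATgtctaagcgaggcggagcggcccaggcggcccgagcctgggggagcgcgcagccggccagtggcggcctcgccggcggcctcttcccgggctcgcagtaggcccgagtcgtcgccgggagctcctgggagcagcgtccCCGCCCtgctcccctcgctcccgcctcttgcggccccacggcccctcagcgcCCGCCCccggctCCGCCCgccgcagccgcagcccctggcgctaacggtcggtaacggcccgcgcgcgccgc
The window holds 44 CpG dinucleotides, more than 95.8% of 35116 promoter windows of the same length, whose median is 14. It has 3 GC boxes, found in 45.0% of those windows, and 1 CCAAT box, found in 34.6%. No methylation was measured here.

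The genes whose pattern over the 6 libraries was nearest to CRNDE, by the root mean square difference of centred log2 CPM, were SLC31A1 at 0.067 and TCEA1 at 0.069. SLC31A1, a copper importer, fell from 133 to 157 CPM to 64.0 to 85.2 CPM. TCEA1, a transcription elongation factor, fell from 361 to 446 CPM to 159 to 238 CPM.

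TUG1 has been tied to cell proliferation and to Polycomb proteins, and lies on the plus strand at chr22:30969245-30979395. Its levels were 102, 91.1 and 91.6 CPM in sensitive and 165, 151 and 123 CPM in resistant libraries. Every resistant library lay above every sensitive one. The mean rose 1.54-fold, from 94.8 ± 6.01 to 146 ± 21.3 CPM (SD, n = 3), with a log2 fold change of 0.62 ± 0.16, an interval of 0.26 to 0.98 and an adjusted p of 0.0204. Leaving out replicate 1 or 2 of either group ended the call, with log2 fold changes of 0.53 to 0.66. The adjusted p was then 0.0687 and 0.103 for the sensitive libraries and 0.0660 and 0.102 for the resistant ones.

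MORC2, a chromatin silencing ATPase gene, starts 946 bases from TUG1 on the opposite strand. It stood at 35.3, 31.2 and 28.6 CPM in sensitive and 51.0, 41.9 and 34.3 CPM in resistant libraries and did not pass (0.42, adjusted p = 0.123). SMTN, a gene of a smooth muscle cytoskeletal protein on the other side, was apart at 10.1 to 17.6 and 17.7 to 20.6 CPM but did not pass (0.45, adjusted p = 0.165). The start of TUG1 (chr22:30969015-30969314, plus strand) is shown as that of the other member that passed. Capitals mark GC boxes, CCAAT boxes (ATTGG on the other strand) and an E-box (CACGTG).
TUG1 promoter: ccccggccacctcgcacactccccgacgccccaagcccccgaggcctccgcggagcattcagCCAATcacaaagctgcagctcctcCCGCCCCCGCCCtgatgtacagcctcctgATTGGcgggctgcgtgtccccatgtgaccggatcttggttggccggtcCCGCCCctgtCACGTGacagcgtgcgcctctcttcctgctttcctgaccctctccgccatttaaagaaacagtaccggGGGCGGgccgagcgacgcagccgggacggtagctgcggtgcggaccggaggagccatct
It holds 28 CpG dinucleotides, more than 73.8% of windows, with 4 GC boxes, 2 CCAAT boxes and 1 E-box, a motif in 7.26% of windows. Of the 10 RNAs 8 matched the promoter table, and NEAT1 and PVT1 did not. The genes nearest to TUG1 in pattern were PPP2R5E, a regulatory subunit of a protein phosphatase, at 0.032 and ADCK1, a mitochondrial kinase-like protein, at 0.035. PPP2R5E passed (0.62, adjusted p = 0.0174) and ADCK1 did not (0.56, adjusted p = 0.0886).

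**Figure D3:**
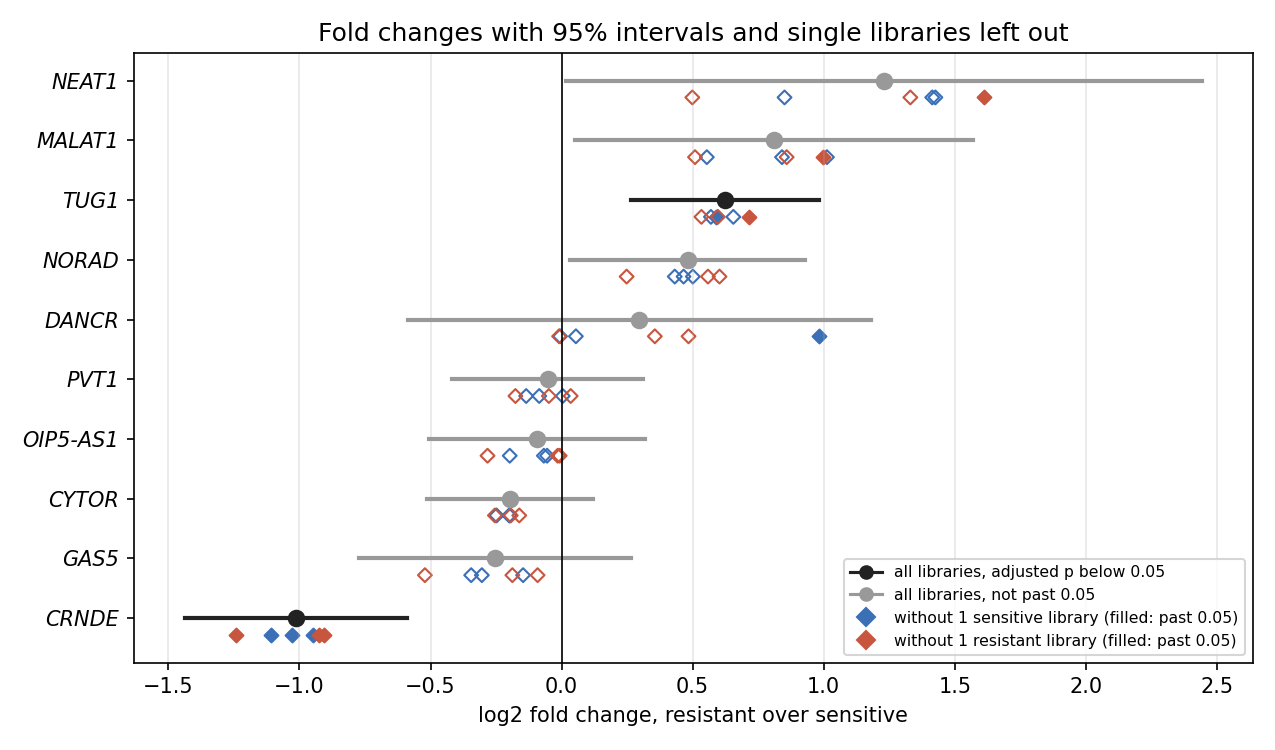
Log2 fold change, resistant over sensitive, of each RNA with its 95% interval (black where the adjusted p was below 0.05, grey otherwise) and, as diamonds below, the values with 1 library left out (blue sensitive, red resistant, filled where past 0.05). All diamonds of CRNDE are filled, TUG1 has 2 filled of 6, and those of DANCR spread from -0.01 to 0.98.

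NORAD is a cytoplasmic RNA that binds translational repressors of the Pumilio family and is known for keeping chromosome number stable. It is read from 1 transcript of 5339 bases on the minus strand at chr20:36045622-36050960. Pumilio proteins bind the motif TGTANATA, and the NORAD transcript holds 15 such motifs, 10 of them TGTATATA, 4 TGTAAATA and 1 TGTACATA. Among the longest transcripts of genes with 4000 to 7000 bases, 5862 in number, 41.9% held any, the median was 0 and 3 held 15 or more, NORAD included. In 3 places NORAD has a pair of motifs starting 9 bases apart. They are shown, with motifs in capitals, because Pumilio proteins bind this motif. The pairs lie on GRCh38, minus strand, at chr20:36049498-36049524, chr20:36048301-36048327 and chr20:36047665-36047691.
NORAD pair 1: atctgTGTATATAgTGTACATAaagga
NORAD pair 2: tatacTGTATATAtTGTATATAtaacg
NORAD pair 3: tgctgTGTATATAgTGTATATAagcgg
Libraries held 303, 277 and 282 CPM of NORAD in sensitive and 332, 359 and 509.8 CPM in resistant cells. The groups did not overlap, and resistant replicate 3 stood well above the rest. The log2 fold change of 0.48 ± 0.20, with an interval of 0.03 to 0.93, had an adjusted p of 0.114. Without resistant replicate 3 it was 0.25 (adjusted p = 0.253), and without both libraries numbered 3 it was 0.24 (adjusted p = 0.150). The call was gained with other scalings, at 0.55 (adjusted p = 0.0467) with upper quartile factors and 0.64 (adjusted p = 0.0335) on library totals alone. These scalings moved the median of all genes to 0.11 and 0.20.

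PUM2, a Pumilio protein, had 104, 114 and 137 CPM in sensitive and 158, 142 and 105 CPM in resistant libraries. The groups overlapped, and it did not pass (0.19, adjusted p = 0.513). Of 18 NORAD partners and Pumilio targets 3 rose, 1 fell and 14 did not pass, with a median log2 fold change of 0.18. Among all tested genes 9.83% rose and 13.1% fell. KHDRBS1, an RNA-binding signalling protein (0.74, adjusted p = 0.0119), E2F3, a cell cycle transcription factor (0.71, adjusted p = 0.0140), and TOP1, a DNA topoisomerase (0.65, adjusted p = 0.0227), rose. RBMX, a nuclear RNA-binding protein that binds NORAD, fell from 714 to 760.5 CPM to 345 to 516 CPM (-0.78, adjusted p = 0.0189). The calls of KHDRBS1, E2F3 and RBMX were lost with some single libraries left out, at adjusted p up to 0.0758, 0.0921 and 0.116. Neither neighbour of NORAD passed, SCAND1 at -0.16 (adjusted p = 0.641) and EPB41L1 at 0.91 (adjusted p = 0.117). The genes nearest to NORAD in pattern were HMGN2, a nucleosome-binding protein, at 0.049 and PDAP1 at 0.057, neither of which passed.

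GAS5 is a snoRNA host whose spliced product is removed by nonsense-mediated decay while it is translated, and which has been described as a decoy for the glucocorticoid receptor. It lies on the minus strand at chr1:173863900-173868882. Its transcripts belong to the class that starts with a run of pyrimidines, which ties their translation to growth signals. Of 29 annotated transcripts 6 start with the same 30 bases, shown with that run in capitals.
GAS5 first bases: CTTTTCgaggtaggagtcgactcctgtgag
GAS5 had 486, 635 and 504 CPM in sensitive and 349, 416 and 597 CPM in resistant libraries. Resistant replicates 1 and 2 lay below the sensitive libraries and replicate 3 among them. Its log2 fold change was -0.25 ± 0.23, with an interval of -0.77 to 0.27 and an adjusted p of 0.473. Without both libraries numbered 3 it was -0.56 (adjusted p = 0.00760), where 22.9% of all genes were called lower. GAS5 overlaps ZBTB37 (0.14) and GAS5-AS1 (0.29) on the other strand, so its counts are uncertain if strand was not used in counting. Next to it, SERPINC1, the gene of antithrombin, fell from 1.15 to 2.22 CPM to 0.126 to 0.262 CPM (-3.22, adjusted p = 0.00121).

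DANCR, also a snoRNA host, is known for holding back differentiation, and lies on the plus strand at chr4:52712404-52720351. It had 42.0, 36.2 and 111 CPM in sensitive and 56.2, 71.0 and 105 CPM in resistant libraries. Sensitive replicate 3 was the highest of all 6, and the groups overlapped. This gave a log2 fold change of 0.30 ± 0.40, with an interval of -0.59 to 1.18 and an adjusted p of 0.633. Without sensitive replicate 3 it was 0.98 (adjusted p = 0.0407), where 8.23% of all genes were called higher. Without both libraries numbered 3 it was 0.69 (adjusted p = 5.49e-04), where 21.2% were. Without sensitive replicate 2 it was -0.0058, and without resistant replicate 3 it was -0.0096. Leaving out any other single library gave 0.05 to 0.48, and none of these values passed. The snoRNA row inside DANCR held 0 counts in every library, but reads there overlap DANCR and may have been dropped in counting. The neighbours USP46, a deubiquitinase gene (0.26, adjusted p = 0.229), and ERVMER34-1, an endogenous retrovirus gene (-1.17, adjusted p = 0.0990), did not pass.

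Of 23 other tested snoRNA hosts 2 rose, 3 fell and 18 did not pass, with a median of -0.08. All tested genes had 9.83% higher and 13.1% lower. SNHG7 rose from 21.9 to 23.95 CPM to 34.4 to 47.1 CPM (0.76, adjusted p = 0.00890), and SNHG5 rose by 0.54 (adjusted p = 0.0464). SNHG6 fell from 81.2 to 98.1 CPM to 49.3 to 67.8 CPM (-0.68, adjusted p = 0.0163). EPB41L4A-AS1 (-0.76, adjusted p = 0.0363) and SNHG32 (-0.63, adjusted p = 0.0460) also fell. The calls of SNHG6 and EPB41L4A-AS1 were lost with some single libraries left out, at adjusted p up to 0.112 and 0.155. Counts in all snoRNA rows together took 0.404% to 0.695% of the sensitive and 0.114% to 0.227% of the resistant libraries, and their part in these results was not tested.

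OIP5-AS1, also called Cyrano, is known for a site of near-complete pairing to miR-7 through which it directs that microRNA's destruction. It lies on the plus strand at chr15:41283990-41309737. The microRNA is printed from RefSeq (GRCh38.p14) with its seed, bases 2 to 8, in capitals, and the site at chr15:41300574-41300599 with capitals for bases complementary to it.
hsa-miR-7-5p: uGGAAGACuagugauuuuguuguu
OIP5-AS1 miR-7 site: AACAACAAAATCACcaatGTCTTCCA
The site pairs 14 bases with the 3′ part and 8 bases with the 5′ end of the microRNA, with 4 bases between them. The longest transcript, of 8829 bases, holds 3 matches to the seed. Of 2091 longest transcripts of similar length 46.8% hold a match and 4.07% hold 3 or more. A run complementary to the 3′ part with a seed match at most 12 bases after it was present in the longest transcripts of 2 of 58676 genes. Mature miR-7 was not analysed here. OIP5-AS1 had 174, 172 and 138 CPM in sensitive and 136, 134 and 185 CPM in resistant libraries. The highest value was that of resistant replicate 3, and the groups overlapped. Its log2 fold change was -0.09 ± 0.18, with an interval of -0.51 to 0.32 and an adjusted p of 0.755, and on library totals alone it was 0.065. Without both libraries numbered 3 it was -0.38 (adjusted p = 0.0154), where 22.9% of all genes were called lower. OIP5, a centromere gene that overlaps it on the other strand, was at 5.05 to 5.62 CPM in sensitive and 3.52 to 6.69 CPM in resistant libraries and did not pass (-0.11, adjusted p = 0.807). CHP1 (0.05) and NUSAP1 (-0.44), the nearest tested coding genes, did not pass.

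PVT1 spans chr8:127794533-128101253 on the plus strand, beside MYC, and is known as a host of microRNAs and as a regulator of that oncogene. It had 56.5, 52.8 and 62.8 CPM in sensitive and 64.7, 54.6 and 46.6 CPM in resistant libraries. The groups overlapped throughout. Its log2 fold change was -0.05 ± 0.16, with an interval of -0.42 to 0.31 and an adjusted p of 0.848, and it was 0.035 with upper quartile factors and 0.13 on library totals alone. MYC, 53098 bases away, had 321, 319 and 301 CPM in sensitive and 186, 212 and 280.4 CPM in resistant libraries, apart but not past the threshold (-0.47, adjusted p = 0.103). Without resistant replicate 3 MYC passed at -0.68 (adjusted p = 0.0117), and without both libraries numbered 3 at -0.70 (adjusted p = 3.36e-04). In these settings 16.5% and 22.9% of all genes were called lower. CYRIB, the next tested coding gene on the other side, did not pass (-0.15, adjusted p = 0.649).

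CYTOR is a cytoplasmic RNA tied to cytoskeleton and growth signalling, and lies on the plus strand at chr2:87454781-87636740. It had 99.8, 99.97 and 91.5 CPM in sensitive and 91.9, 84.2 and 78.0 CPM in resistant libraries. Sensitive replicate 3 and resistant replicate 1 were nearly level, which made the groups overlap. The log2 fold change was -0.20 ± 0.14, with an interval of -0.51 to 0.12 and an adjusted p of 0.356. CYTOR has a near copy on the same chromosome, MIR4435-2HG. Of the stretches of 50 bases in CYTOR transcripts 16.0% also occur in MIR4435-2HG, so reads from these genes may have been exchanged or dropped in counting. MIR4435-2HG had 114, 107 and 112 CPM in sensitive and 123, 106 and 75.9 CPM in resistant libraries and did not pass (-0.13, adjusted p = 0.669). The coding neighbours RGPD1 and PLGLB2 stood below 2 CPM in every library and did not pass.

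Factors that make, modify or remove such RNAs were set beside the 10. Of 24 RNA processing and decay genes 6 rose, none fell and 18 did not pass, with a median log2 fold change of 0.24. The shares over all tested genes were 9.83% higher and 13.1% lower, and the difference from these was not tested. ELAVL1, the RNA-stabilising protein HuR, rose from 46.7 to 50.9 CPM to 74.1 to 99.0 CPM (0.79, adjusted p = 0.00495). METTL16, an RNA methyltransferase that binds the MALAT1 triple helix, rose from 20.8 to 25.2 CPM to 36.8 to 40.2 CPM (0.77, adjusted p = 0.00505). The groups did not overlap for either gene, and each call held with any single library left out. The decay kinase SMG1 (0.74, adjusted p = 0.0363), the exonuclease XRN1 (0.54, adjusted p = 0.0365) and RPP14, an RNase P subunit (0.67, adjusted p = 0.0398), rose as well. UPF1, the central helicase of nonsense-mediated decay, did not pass (0.39, adjusted p = 0.118).

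Among other characterised long noncoding RNAs larger changes were found. Of 51 listed, 48 had a row and 31 passed the filter. Of these 5 rose, 9 fell and 17 did not pass, with a median of -0.24. Among all tested genes of long noncoding types 6.67% rose and 11.0% fell, and the difference from these shares was not tested. H19, an imprinted RNA named in the study's title and therefore not independent evidence, rose from 26.4 to 37.6 CPM to 792 to 854 CPM (4.65, adjusted p = 1.37e-06). SCHLAP1, an RNA known from prostate cancer, fell from 6.21 to 11.7 CPM to 0.201 to 0.360 CPM (-5.17, adjusted p = 1.43e-05). LINC01138 fell from 11.2 to 13.1 CPM to 3.17 to 3.47 CPM (-1.89, adjusted p = 1.40e-04). The log2 fold changes of the 10 RNAs, by comparison, ran from -1.01 to 1.23, and this difference in range was not tested.

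**Figure D4:**
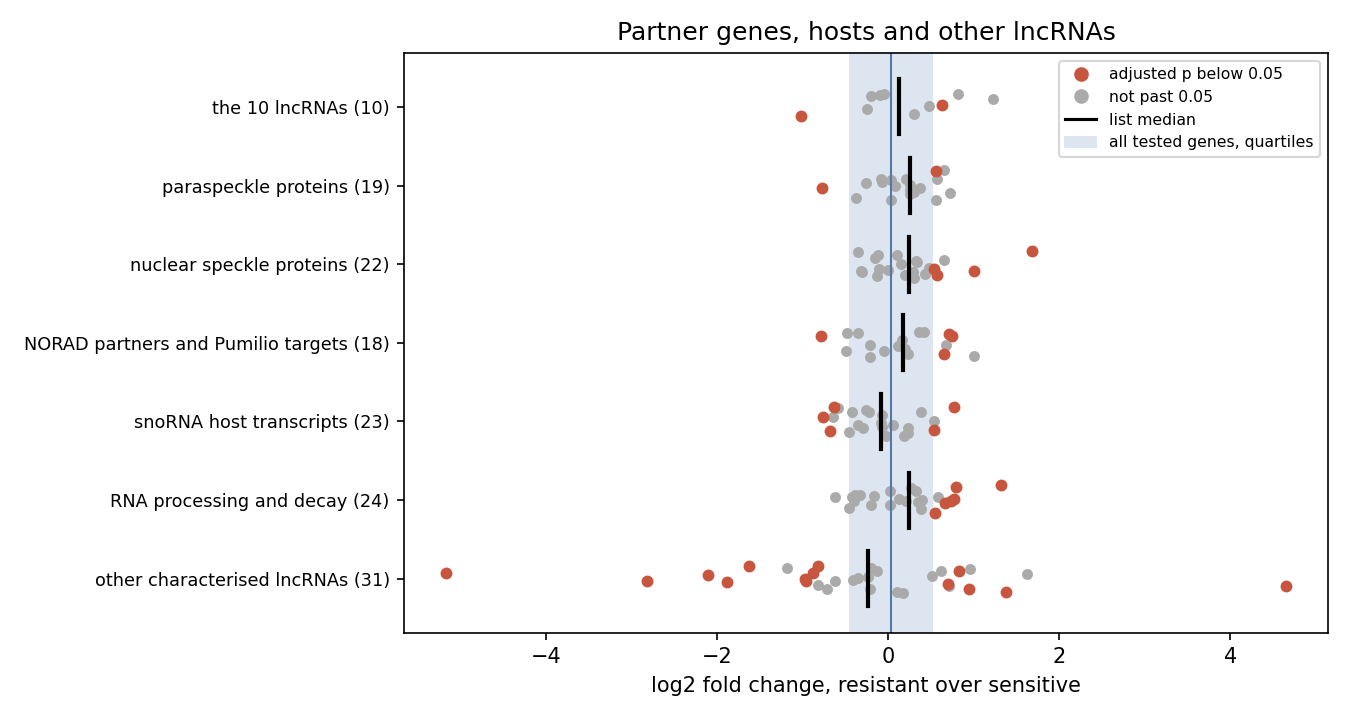
Log2 fold change, resistant over sensitive, of each tested gene (points, red where the adjusted p was below 0.05) in the 10 RNAs and 6 other lists, with the list median as a black bar and the quartiles of all tested genes as a blue band around their median of 0.03. All list medians lie within the band, and the widest spread is that of the other long noncoding RNAs, from -5.17 to 4.65.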

How the data were processed

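RNA was measured in 3 azacitidine-sensitive and 3 azacitidine-resistant K562 libraries. The authors deposited raw counts per Ensembl gene. Subread 2.0.3, featureCounts, HISAT2 2.2.1, Trimmomatic 0.39 and the build GRCh38 are listed in the submitters' processing notes. Not given in the sources used here: the annotation release, the strand setting, and the choice of reads or fragments. Positions come from GENCODE 29, which matched 58312 of 61487 IDs, and symbols matched 61369. The labels call libraries biological replicates without naming separate cultures. A p-value here therefore reflects only how these libraries spread, which may be technical.

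Counts were tested with edgeR 4.0.16 (R 4.3.3): filterByExpr, TMM, the robust quasi-likelihood test, two-sided, with Benjamini-Hochberg adjustment over 20891 genes. The script was tested on simulated data. A count of 0 allows up to 0.0698 to 0.0909 CPM (3 counts), for counting error only. DESeq2 1.42.0, limma 3.58.1 (voom), other scalings and filters, a length and GC offset, and leaving out libraries were tried. Gene models with a length and GC value covered 20147 tested genes.

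The 10 RNAs and all lists were chosen with earlier results of these data known. The text names the 10, up to 3 genes with the smallest adjusted p of each list, coding or overlapping neighbours, MYC, MIR4435-2HG, and the 2 genes nearest in pattern to the 3 members with the smallest adjusted p. NONO, SFPQ, PSPC1, PUM2, UPF1 and the remaining called list genes named in the text were added after their values were seen. Some genes that the rule selects are not reported here. A planned ratio of GAS5 snoRNAs to GAS5 was not computed, because no row was matched to those snoRNAs at the GAS5 locus.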

Additional observations from a re-analysis of the deposited data

How the results depend on the processing

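Of 56 named genes 24 passed the test. Many of the 56 were picked from these same data by a small adjusted p or by pattern. Their share that passed, and how well their direction held, therefore cannot be set against the 23.0% of all tested genes that passed. Other called genes named in the text, such as TRA2A, SNHG5 and TOP1, were not among the 56, and their values under alternatives were not examined. None of the 24 changed direction under any alternative, but 11 lost the call without some single library, TUG1 among them, and 13 did not, CRNDE among them. Of 945 values under alternatives 814 kept their direction and side of the threshold, 57 lost a call, 42 gained one and 32 changed sign, all in genes that had not passed. The number of the 10 RNAs called higher, 1 with all libraries, was 2 with upper quartile factors (NORAD, TUG1), 2 on library totals alone (NORAD, TUG1), 2 with DESeq2 (MALAT1, TUG1), 3 with no filter (MALAT1, NEAT1, TUG1) and 4 without both libraries numbered 3 (DANCR, MALAT1, NEAT1, TUG1). With upper quartile factors 2502 of 20891 genes were called higher. Under the other settings, in the same order, 14.6%, 12.6%, 7.05% and 21.2% of all genes were, against 9.83% in the reported fit. With 1 library left out it was 0 to 3, where 4.84% to 14.8% of all genes were called higher. The 3 came without resistant replicate 3, the setting with 14.8%. The number called lower, 1 with all libraries (CRNDE), was 3 without both libraries numbered 3 (CRNDE, GAS5, OIP5-AS1), where 22.9% of all genes were called lower. The difference in the log2 ratio of NEAT1 to MALAT1 ranged from -0.025 (without resistant replicate 1) to 0.63 with 1 library left out. With no filter NEAT1 had a log2 fold change of 1.20 and an adjusted p of 9.71e-07. The cause of these changes was not tested.

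Replicate numbers did not establish pairs: deviations of same-numbered libraries from their group means correlated at 0.20, 0.08 and 0.30 across genes, and sensitive replicate 2 correlated better with resistant replicate 1 (0.23). With the replicate number as a block 4 of the 10 RNAs were called higher (MALAT1, NEAT1, NORAD and TUG1), with 13.7% of all genes called higher. CRNDE was called lower, with 17.1% of all genes.

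Values that changed sign were all of genes that had not passed. On library totals alone the log2 fold changes were 0.13 for PVT1, 0.065 for OIP5-AS1, 0.076 for FTO, 0.095 for IRX5, 0.027 for CYRIB, 0.0059 for SCAND1, 0.056 for OIP5 and 0.049 for MIR4435-2HG. With upper quartile factors they were 0.035 for PVT1 and 0.016 for IRX5. Without both libraries numbered 3 they were 0.11 for PVT1, 0.073 for FTO, -0.090 for PLGLB2, -0.12 for CHP1 and 0.040 for MIR4435-2HG. With single libraries left out the range was -0.18 to 0.035 for PVT1, -0.0096 to 0.98 for DANCR, -0.24 to 0.082 for IRX5, -0.0089 to 0.22 for ZBTB37, -0.35 to 0.065 for CYRIB, -0.38 to 0.047 for SCAND1, -0.31 to 0.35 for RGPD1, -0.26 to 0.67 for PLGLB2, -0.065 to 0.15 for CHP1, -0.41 to 0.090 for OIP5 and -0.28 to 0.025 for MIR4435-2HG. No alternative was run for the ratio of GAS5 snoRNAs to GAS5, since no row gave that ratio. Depth did not limit the 10 RNAs. The intervals were widest for NEAT1 and DANCR (SE 0.54 and 0.40).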

Other observations

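KCNQ1OT1, a long nuclear antisense RNA of the imprinted region on chromosome 11, was singled out after its values were seen. It had 137, 135 and 54.6 CPM in sensitive and 168, 128 and 53.3 CPM in resistant libraries. As with NEAT1, replicate 3 was the lowest library of each group, while the groups overlapped (log2 fold change 0.10, edgeR adjusted p = 0.890).

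FTX, a noncoding RNA of the X-inactivation centre, rose from 22.5 to 27.6 CPM to 29.5 to 69.7 CPM (0.95, edgeR adjusted p = 0.0311), and CHASERR, which lies beside the chromatin remodeller gene CHD2, rose from 18.8 to 26.1 CPM to 56.5 to 64.3 CPM (1.38, edgeR adjusted p = 3.81e-04). FIRRE, a nuclear RNA of the X chromosome, fell from 24.1 to 27.8 CPM to 10.2 to 17.3 CPM (-0.96, edgeR adjusted p = 0.00892). These 3 belong to the list of other long noncoding RNAs and were picked after their values were seen.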
